A study of Mus musculus with 8 samples.

Results

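Fc receptors bind the constant part of antibodies and tie the antibody response to the phagocytes that carry them. Transcripts of 6 mouse Fc receptor genes were followed here in macrophages of malignant ascites: the activating Fc gamma receptors Fcgr1, Fcgr3 and Fcgr4, their shared signalling chain Fcer1g, the inhibitory receptor Fcgr2b, and the neonatal Fc receptor Fcgrt. They were taken by gene symbol, with earlier results of these data known, and all 6 were found among the 23469 genes of the deposited table and among the 8801 genes that averaged 1 TPM or more (TPM, transcripts scaled to a common total and to gene length) and were tested. AeEMs differed little from AeMMs in these genes. Fcgrt was 1.22-fold higher in AeEMs and was the only one of the 6 to pass the unpaired test over all genes (limma, adjusted p = 0.029). That call was lost when 3 sets of libraries entered the fit as a term (0.31), with a replicate block (0.32), without a variance trend (0.10) and in 6 of 8 fits that left out a library. Fcgr2b, Fcer1g and Fcgr4 had 82.5%, 85.0% and 85.8% of the AeMM level with no overlap between the groups but did not pass. Of the 8801 genes tested, 1.25% were called higher in AeEMs, and 6.53% had AeEMs below AeMMs without overlap. Fcgr3, the most abundant of the receptors, was at 99.0%.

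The activating receptors bind IgG in immune complexes or on coated cells and signal through the Fc receptor gamma chain, the product of Fcer1g, whose immunoreceptor tyrosine-based activation motif (ITAM) is phosphorylated by Src family kinases and recruits the kinase Syk. Fcgr2b carries an inhibitory motif (ITIM) in its own tail, recruits the phosphatase SHIP1 (Inpp5d) and dampens these signals, so the balance of activating and inhibitory receptors sets how a macrophage answers to IgG. Fcgrt pairs with beta-2 microglobulin (B2m) and works inside the cell, where it binds IgG and albumin in acidic endosomes, returns them to the surface and helps to route immune complexes for antigen presentation.

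The study asked how tissue-resident and monocyte-derived macrophages of ascites differ. AeEMs were tdTomato-negative and AeMMs tdTomato-positive CD45+ Ly6G- SiglecF- Ly6C- CD11b+ F4/80+ cells, a gate meant to remove neutrophils (Ly6G), eosinophils (SiglecF) and Ly6C+ monocytes, from the ascites of female C57BL/6 mice that all carried Ms4a3Cre-RosaTdT and were given no drug. All mice had received ID8 cells, a mouse ovarian surface epithelial tumour line, into the peritoneum at 4 to 5 weeks of age, and ascites was taken 65 days later. Ms4a3 drives Cre in granulocyte-monocyte progenitors, so tdTomato marks their progeny. The tdTomato-negative gate is taken as embryonic and can also hold any unlabelled cell with the same surface markers. There were 4 Smart-seq2 libraries of each group. The labels do not say whether equal numbers share a mouse. The p-values thus measure the spread between these libraries that an adjustment, described below, has left. Values are log2(TPM + 1) as deposited, and levels are printed as TPM after back-transformation. In a bulk sample, fewer cells that express a gene and less RNA of it per cell cannot be told apart.

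TPM summed to 958862 to 974303 per library, 8498 to 8753 genes reached 1 TPM, and the 10 most abundant genes held 50.5% to 54.3% of the TPM. No read counts were used, so the depth is unknown. The deposited values carry an adjustment that brings the mean of a gene almost to 1 level in each of 3 sets. Replicates 1 of both groups form a set, as do replicates 2, and replicates 3 and 4 form the third. The set means of the members differed by at most 0.018 on the log2 scale. The SDs, coefficients of variation and unpaired SEs, intervals and p-values printed here measure only the spread that this adjustment left. Each member is therefore given from the unpaired limma fit and beside it from a fit with the 3 sets as a term, which accounts for the degrees of freedom that the adjustment used. The exact permutation p printed for each member splits the libraries without regard to the sets. It may be too small for that reason, and no permutation within sets was run. All 6 macrophage markers were expressed and none passed the test. Their sum, 3990 to 4160 TPM in AeEMs and 3650 to 3990 TPM in AeMMs, was mostly Cd68 (mean 3805 TPM in AeEMs, 3472 TPM in AeMMs), whose AeEM libraries were all above the AeMM libraries. Those of Adgre1 (mean 16.97 TPM in AeEMs, 19.03 TPM in AeMMs), Csf1r (166.2 TPM in AeEMs, 201.7 TPM in AeMMs) and Mertk (11.95 TPM in AeEMs, 14.5 TPM in AeMMs) were all below, as for Fcgr2b, Fcgr4 and Fcer1g.

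The stretches that encode the 2 opposing motifs are shown because they set the roles of these genes. The stretch of Fcer1g that encodes the ITAM (codons 64 to 80, GRCm38 chr1:171229886-171230075, minus strand, over 2 exons) and the stretch of Fcgr2b that encodes the ITIM (codons 314 to 325, chr1:170961062-170961097, minus strand, 1 exon) are shown with the tyrosine codons in capitals:
Fcer1g ITAM: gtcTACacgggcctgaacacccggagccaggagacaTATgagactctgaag
Fcgr2b ITIM: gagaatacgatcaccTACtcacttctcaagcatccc
Within the 6 coding sequences, a pair of runs of tyrosine, 2 codons of any kind and leucine or isoleucine, set 6 to 12 codons apart, was found only in Fcer1g. The looser ITIM letters (isoleucine, valine, leucine or serine, 1 codon of any kind, tyrosine, 2 of any kind, then leucine, valine or isoleucine) matched 3 times in Fcgr1 and 1 time each in Fcgr2b, Fcgr4, Fcer1g and Fcgrt, so these letters alone do not single out Fcgr2b, whose ITIM is given from background. The coding sequences, taken from GENCODE M21, hold 404 codons in Fcgr1, 340 in Fcgr2b, 267 in Fcgr3, 249 in Fcgr4, 86 in Fcer1g and 369 in Fcgrt. Fcgr2b and Fcgr3 are near copies in part: 642 of 735 aligned coding bases were identical (87.3%), and their longest shared run was 129 bases, shorter than the 150 bases of a read. They shared 166 runs of 50 bases, 10.2% of those in Fcgr3 and 4.48% of those in Fcgr2b, but no run of 150 bases. A read of full length thus covers a base that differs, and only a read trimmed to less could match both transcripts. How such reads were handled is unknown. No other pair of the 6 shared a run of 50 bases.

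Fcer1g was by far the most abundant of the 6 genes, followed by Fcgr3 and Fcgr2b. In AeEMs the order continued with Fcgrt, Fcgr4 and Fcgr1, and no neighbours in it overlapped over the 4 libraries. In AeMMs Fcgrt was above Fcgr4 in only 1 of 4 libraries and the ranges of both overlapped, whereas all other neighbours kept their order without overlap. TPM are per length, so these levels can be compared between genes. The plot of the 6 genes by library shows that the spread within a group was widest for Fcgr1, with a coefficient of variation of 14% in AeEMs and 12% in AeMMs, and narrowest for Fcgrt, with 3.7% in AeEMs and 2.1% in AeMMs.

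**Figure D1:**
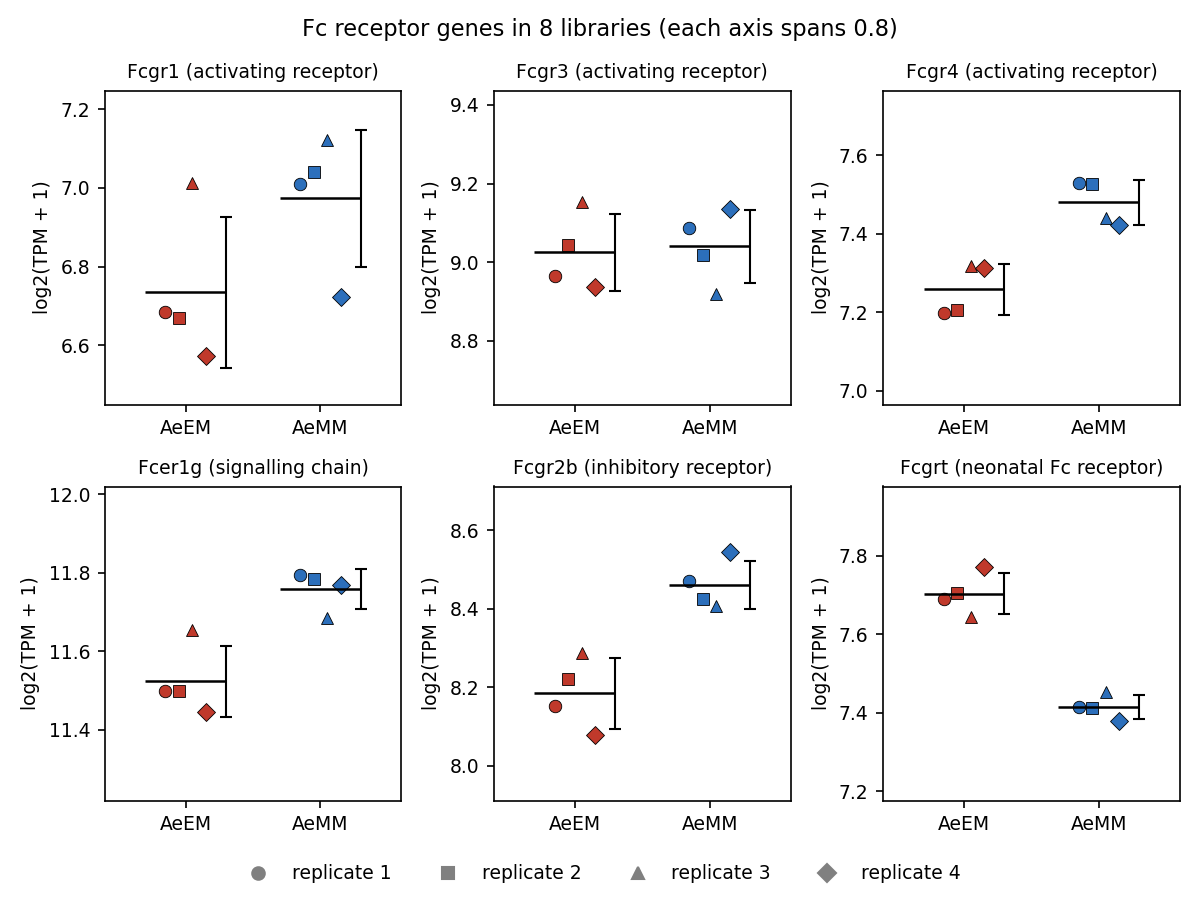
Level of each Fc receptor gene on the deposited log2(TPM + 1) scale in 4 AeEM libraries (red, left) and 4 AeMM libraries (blue, right), with the symbol giving the replicate number, the line the mean and the bar the SD; each axis spans 0.8 and does not start at 0. All AeEM points lie above the AeMM points for Fcgrt and below them for Fcgr4, Fcer1g and Fcgr2b, and the groups overlap for Fcgr1 and Fcgr3.

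Of the activating receptors, Fcgr1 (CD64, chr3:96282909-96293969, minus strand) binds monomeric IgG with high affinity. It had 102, 101, 128 and 94.2 TPM in AeEMs, replicates 1 to 4, against 128, 131, 138 and 105 TPM in AeMMs. Replicate 3 of the AeEMs lay among the AeMMs and replicate 4 of the AeMMs among the AeEMs, so the groups overlapped. The log2 fold change (AeEM minus AeMM) was -0.24 ± 0.12 (SE, n = 4 per group, limma, adjusted p = 0.33, or 0.67 with 3 sets, two-sided exact permutation p = 0.0857).

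Fcgr3 (CD16, chr1:171051174-171064935, minus strand) is the low-affinity activating receptor of mouse macrophages and natural killer cells. It had 499, 527, 569 and 489 TPM in AeEMs and 542, 518, 483 and 561 TPM in AeMMs, with each group's range lying across the other's. Its log2 fold change was -0.02 (SE 0.07, limma, adjusted p = 0.95, or 0.98 with 3 sets, exact permutation p = 0.857). Larger differences than this were seen in 94.5% of the genes tested. The 95% interval, -0.17 to 0.14, or -0.22 to 0.19 with 3 sets, leaves room for a change of either sign. NK cells, which also express Fcgr3, were represented at 2.00 to 11.6 TPM in AeEMs and 5.49 to 14.4 TPM in AeMMs by the sum of 6 markers, with Nkg7 lower in AeEMs (limma, adjusted p = 0.011, or 0.071 with 3 sets) and Ncr1, Gzma and Prf1 under 1 TPM in every library. Klrd1, the other NK marker tested, had the opposite sign, with means of 8.15 TPM in AeEMs and 1.92 TPM in AeMMs (log2 fold change 1.52 ± 0.48, SE, limma, adjusted p = 0.14).

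Fcgr4 (chr1:171018920-171029761, plus strand) binds IgG2a and IgG2b with intermediate affinity and is found on monocytes, macrophages and neutrophils. It had 146, 147, 158 and 158 TPM in AeEMs, against 184, 183, 173 and 171 TPM in AeMMs. All 4 AeEM libraries were below all 4 AeMM libraries, and the gap was wider in replicates 1 and 2 than in replicates 3 and 4. The log2 fold change of -0.22 ± 0.06 (SE, n = 4 per group) did not pass (limma, adjusted p = 0.094, or 0.47 with 3 sets, exact permutation p = 0.0286, the smallest that 70 splits can give). Neutrophil markers were measured beside it. The list of 7, of which 6 were in the table, summed to 20.8 to 23.7 TPM in AeEMs and 33.2 to 46.4 TPM in AeMMs, with S100a8 lower in AeEMs (limma, adjusted p = 0.0044, or 0.060 with 3 sets) and Cxcr2 and Retnlg under 1 TPM in every library. Of the other neutrophil markers tested, Csf3r differed by -0.53 on the log2 scale (limma, adjusted p = 0.11) and Mmp8 by 0.58 (0.25). The monocyte list of 5 summed to 166 to 257 TPM in AeEMs and 142 to 195 TPM in AeMMs, with Ly6c2 lower in AeEMs (limma, adjusted p = 0.048). That call was lost with the 3 sets as a term (0.25) and without any 1 library except replicate 3 of the AeEMs (up to 0.14). Neutrophils and Ly6C+ monocytes fall outside the sort gate, and their part in the Fcgr4 difference was not tested.

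Fcer1g (chr1:171229572-171234365, minus strand), the signalling chain on which surface expression of the activating receptors depends, had 2895, 2892, 3222 and 2786 TPM in AeEMs, against 3552, 3527, 3289 and 3487 TPM in AeMMs. The groups did not overlap, though replicate 3 of the AeEMs and replicate 3 of the AeMMs nearly met, 0.03 apart on the log2 scale. The log2 fold change was -0.23 ± 0.06 (SE, n = 4 per group, limma, adjusted p = 0.069, or 0.39 with 3 sets, exact permutation p = 0.0286). The test was passed without replicate 3 of the AeEMs (adjusted p = 0.026). Of the settings tried, quantile scaling moved the difference most, and -0.40 was found on the log2 scale (limma, adjusted p = 0.010). Tyrobp, which encodes DAP12, the other common ITAM chain of macrophages, had 2720 to 3120 TPM in AeEMs and 3270 to 3580 TPM in AeMMs, also without overlap (log2 fold change -0.24 ± 0.06, SE, limma, adjusted p = 0.069, or 0.38 with 3 sets, and 0.033 without replicate 3 of the AeEMs).

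The inhibitory receptor Fcgr2b (CD32B, chr1:170958617-170976547, minus strand) had 283, 297, 311 and 269 TPM in AeEMs, against 354, 342, 339 and 372 TPM in AeMMs. All AeEM libraries were below all AeMM libraries. Replicate 4, which had the lowest AeEM value and the highest AeMM value, was farthest apart. The log2 fold change of -0.28 ± 0.06 (SE, n = 4 per group) was the closest to the threshold of those that did not pass (limma, adjusted p = 0.060, or 0.38 with 3 sets, exact permutation p = 0.0286). It passed when replicate 3 of the AeEMs was left out (adjusted p = 0.046). B cells also express Fcgr2b: the 7 B and plasma cell markers summed to 258 to 401 TPM in AeEMs and 247 to 468 TPM in AeMMs, ranges that overlapped, and none passed the test.

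Fcgrt (chr7:45092990-45103851, minus strand) had 206, 208, 199 and 218 TPM in AeEMs, against 170, 169, 174 and 166 TPM in AeMMs. No library of AeMMs reached the lowest of the AeEMs, and the differences within replicate 1, replicate 2 and replicates 3 and 4 were 0.28, 0.29 and 0.29 on the log2 scale. Fcgrt rose in AeEMs by 0.29 ± 0.05 on the log2 scale (SE, n = 4 per group, limma, adjusted p = 0.029, exact permutation p = 0.0286). The 95% interval was 0.17 to 0.41, or 0.10 to 0.48 with the 3 sets as a term. The call did not hold with the 3 sets as a term (adjusted p = 0.31) or with the replicate number as a block (0.32). It was also lost without replicate 1, 2 or 4 of the AeEMs (adjusted p = 0.11, 0.10 and 0.065) and without replicate 1, 2 or 4 of the AeMMs (0.11, 0.10 and 0.062). The adjustment makes replicates 1 of both groups mirror each other, and replicates 2 likewise. Here and elsewhere, leaving out either library of such a set is therefore not a separate check. The size of the difference stayed between 0.27 and 0.32 under all 18 alternatives. B2m, its light chain, which it shares with MHC class I, was at 13300 to 15800 TPM in AeEMs and 14400 to 17200 TPM in AeMMs and overlapped (log2 fold change -0.07 ± 0.08, SE, limma, adjusted p = 0.68).

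Dendritic cell markers were read beside Fcgrt. The list of 8 summed to 44.9 to 107 TPM in AeEMs and 6.49 to 13.8 TPM in AeMMs. Most of the AeEM sum was 1 gene, Cd209a (mean 66.35 TPM in AeEMs, 4.505 TPM in AeMMs). Cd209a and Itgax (mean 5.442 TPM in AeEMs, 2.083 TPM in AeMMs) were higher in AeEMs (limma, adjusted p = 0.0029 and 0.011, or 0.033 and 0.11 with 3 sets). Flt3 and Zbtb46, which define conventional dendritic cells, were under 1 TPM in every library. Flt3 averaged 0.345 TPM in AeEMs and 0.157 TPM in AeMMs, and Zbtb46 averaged 0.596 TPM in AeEMs and 0.247 TPM in AeMMs. Ccr7, the third marker tested, had means of 3.52 TPM in AeEMs and 0.578 TPM in AeMMs (log2 fold change 1.48 ± 0.47, SE, limma, adjusted p = 0.15). Dpp4, too low to be tested, had 0.797 to 1.64 TPM in AeEMs and 0.071 to 0.479 TPM in AeMMs, and Xcr1 and Clec9a, also untested, reached 1.35 and 1.27 TPM in AeEMs and 0.644 and 2.03 TPM in AeMMs. The part of dendritic cells in the Fcgrt difference was not tested.

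**Figure D2:**
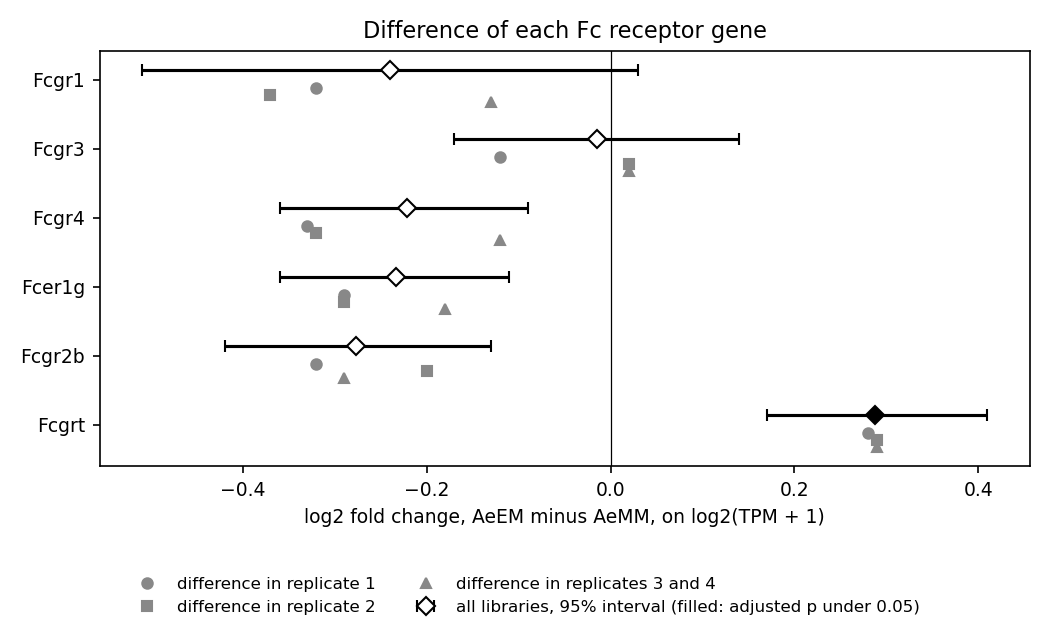
Log2 fold change of each Fc receptor gene, AeEM minus AeMM, over 4 libraries of each group (diamonds, with 95% intervals from the unpaired limma fit; filled where the adjusted p was under 0.05) and the difference within each of the 3 sets of libraries (grey). Fcgrt is the only filled diamond; in Fcgr1, Fcgr4, Fcer1g and Fcgr2b every set lies below 0, and Fcgr3 straddles 0.

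Set against all genes, these counts were as follows. The call of Fcgrt was 1 of 6 members in the upward direction, where 1.25% of the 8801 genes tested were called. None of the 6 was called lower, where 1.16% of genes were. With the 3 sets as a term no member was called, and 0.159% of genes were, in either direction. At an unadjusted p under 0.05, 4 of the 6 members counted in the unpaired limma fit (Fcgr2b, Fcgr4, Fcer1g and Fcgrt), against 18% of all genes, and 4 in the fit with 3 sets, against 9.64%. The groups did not overlap, with AeEMs above, in 1 of 6 members and in 5.72% of all genes. They did not overlap, with AeEMs below, in 3 of 6 members and in 6.53% of all genes. The differences were small in size. A larger absolute log2 fold change than that of Fcgrt was found in 24.9% of genes, and larger ones than that of Fcgr2b, Fcgr1, Fcer1g and Fcgr4 in 26.6%, 32.5%, 33.5% and 35.7%.

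The balance of activating and inhibitory receptors was then read within each library, where a common scale factor cancels out. Summed TPM of Fcgr1, Fcgr3 and Fcgr4 over TPM of Fcgr2b gave 2.68 ± 0.077 in AeEMs and 2.36 ± 0.083 in AeMMs (SD, n = 4 each). The AeEM libraries ran between 2.60 and 2.75 and the AeMM libraries between 2.25 and 2.43, so the groups did not overlap, and AeEMs had the larger ratio in each of the 3 sets, by 0.13, 0.10 and 0.26 on the log2 scale. No p is given, since this is a score over genes chosen together.

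Of the single receptors, only Fcgr3 stood apart between the groups when set over Fcgr2b. It was 1.79 ± 0.033 times as abundant as Fcgr2b in AeEMs and 1.49 ± 0.047 times as abundant in AeMMs (SD, n = 4 each). On the log2 scale the AeEM libraries lay between 0.81 and 0.87 and the AeMM libraries between 0.51 and 0.62. The mean difference of 0.26 ran between 0.24 and 0.27 when any 1 library was left out. Fcgr3 itself hardly differed (log2 fold change -0.02), so this ratio mostly restates the lower level of Fcgr2b in AeEMs (-0.28), which did not pass the test. As these genes share stretches of coding sequence, trimmed reads assigned to the wrong one would move this ratio, which was not tested. Fcgr4 over Fcgr2b (0.528 ± 0.041 in AeEMs, 0.507 ± 0.033 in AeMMs) and Fcgr1 over Fcgr2b (0.367 ± 0.032 in AeEMs, 0.360 ± 0.055 in AeMMs) overlapped between the groups, and their differences changed sign between the 3 sets. That of Fcgr1 was negative, -0.02 and -0.07 on the log2 scale, without replicate 3 of the AeEMs or replicate 4 of the AeMMs, against 0.04 with all libraries.

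**Figure D3:**
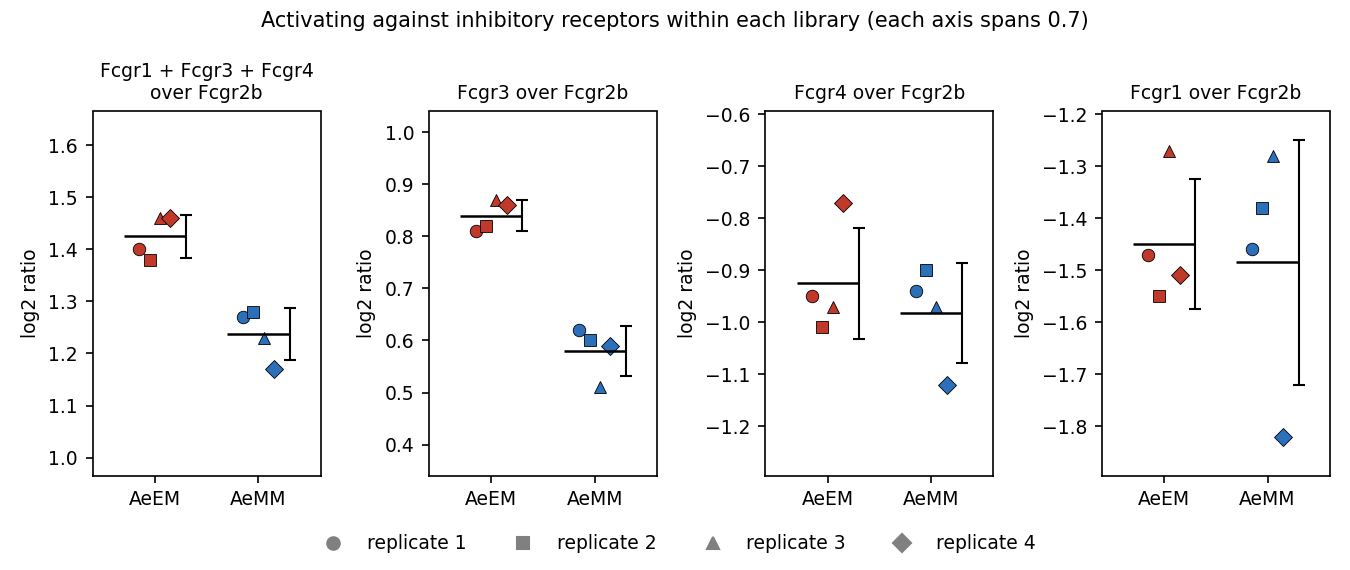
Log2 ratio of activating receptors to the inhibitory receptor Fcgr2b within each library, for 4 AeEM (red, left) and 4 AeMM (blue, right) libraries, with the mean (line) and SD (bar); each axis spans 0.7. The groups are apart for the summed activating receptors and for Fcgr3, and overlap for Fcgr4 and Fcgr1.

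As shares of the TPM of the 4 Fc gamma receptors, Fcgr3 held 48.7% ± 0.36 in AeEMs and 44.5% ± 1.6 in AeMMs, and Fcgr2b held 27.1% ± 0.57 in AeEMs and 29.8% ± 0.75 in AeMMs (SD, n = 4 each), both without overlap. Fcgr4 (14.3% in AeEMs, 15% in AeMMs) and Fcgr1 (9.9% in AeEMs, 10.6% in AeMMs) overlapped. As the level of Fcgr3 hardly differed, its larger share in AeEMs restates the lower levels of the other receptors, none of which passed the test. The 4 receptors together came to 1069 ± 69.4 TPM in AeEMs and 1181 ± 35.7 TPM in AeMMs, and these ranges overlapped (1011 to 1167 TPM in AeEMs, 1133 to 1208 TPM in AeMMs). Fcer1g stood at 3.78 ± 0.063 times the summed activating receptors in AeEMs and 4.18 ± 0.044 times in AeMMs (SD, n = 4 each), again without overlap. The signalling chain was thus lower per activating receptor transcript in AeEMs in all 4 libraries, and receptors other than these 3 use the chain as well.

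Genes linked to Fc receptors were described by lists. Of 13 other Fc receptor genes, 5 were tested, and none was called (limma, with 1 at an unadjusted p under 0.05). Over all genes tested, 1.25% were called higher, 1.16% lower, and 18% had an unadjusted p under 0.05. The highest of them, Fcrls, an Fc receptor-like gene of mouse tissue macrophages, had 44.9 to 54.6 TPM in AeEMs and 24.4 to 39.4 TPM in AeMMs. The groups did not overlap, and its log2 fold change was 0.61 ± 0.14 (SE, limma, adjusted p = 0.056, or 0.29 with 3 sets, and 0.033 without replicate 3 of the AeMMs). Fcrl1 and Trim21, the cytosolic antibody receptor, were low in both groups, with means of 2.19 and 1.99 TPM in AeEMs and 2.48 and 2.02 TPM in AeMMs. Of 12 receptors known to pair with the gamma chain, 4 were tested and none was called (limma, with 1 at an unadjusted p under 0.05, against the same shares). They included the C-type lectins Clec4d, Clec4n and Clec4e, whose log2 fold changes were -0.35, -0.17 and -0.10 (limma, adjusted p = 0.14, 0.49 and 0.89), with overlapping groups.

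Of 30 genes of activating signalling after Fc gamma receptors, 24 were tested, 1 rose in AeEMs, none fell, and the median log2 fold change was 0.01, against -0.006 over all genes tested. Over all genes, 1.25% rose and 1.16% fell. At an unadjusted p under 0.05, 4 of the 24 counted, against 18% of all genes. Lat2, an adaptor that is phosphorylated after immunoreceptor engagement, was the one that rose. It had 26.6 to 30.7 TPM in AeEMs and 19.7 to 22.1 TPM in AeMMs (log2 fold change 0.39 ± 0.08, SE, limma, adjusted p = 0.042). The call was lost in the fit with 3 sets (0.32) and without any 1 of the 8 libraries (0.064 to 0.13). Syk, the kinase recruited by the ITAM, had 11.0 to 13.6 TPM in AeEMs and 8.87 to 10.8 TPM in AeMMs, with no overlap, and did not pass (log2 fold change 0.31 ± 0.10, SE, limma, adjusted p = 0.15). The most abundant members, the GTPases Rac2 and Cdc42 and the actin-branching subunit Arpc2, had log2 fold changes of 0.27, 0.06 and 0.15 (limma, adjusted p = 0.080, 0.74 and 0.39).

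Of 27 genes of inhibitory signalling and other inhibitory receptors, 25 were tested, 1 rose, 1 fell, and the median log2 fold change was 0.05. At an unadjusted p under 0.05, 6 of the 25 counted, also against 18% of all genes, of which 1.25% rose and 1.16% fell. Siglecg, a sialic acid-binding inhibitory receptor best known from B cells, was low in both groups, at 2.84 to 4.51 TPM in AeEMs and 0.776 to 2.19 TPM in AeMMs, and rose by 1.09 ± 0.20 on the log2 scale (SE, limma, adjusted p = 0.029). Lair1, an inhibitory collagen receptor, had 16 to 17.8 TPM in AeEMs and 22.3 to 24.5 TPM in AeMMs (log2 fold change -0.43 ± 0.07, SE, limma, adjusted p = 0.022). Neither passed in the fit with 3 sets (0.20 for Siglecg, 0.27 for Lair1). When 1 library was left out, Siglecg passed only without replicate 3 of either group (0.012 to 0.11 over the 8), and Lair1 only without replicate 3 or 4 of either group (0.033 to 0.090). Cd33, named here for this call alone, passed without replicate 3 of the AeMMs (0.022).

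Inpp5d, which encodes SHIP1, the phosphatase of the Fcgr2b ITIM, overlapped between the groups, at 6.31 to 7.40 TPM in AeEMs and 6.06 to 8.89 TPM in AeMMs (log2 fold change -0.10 ± 0.12, SE, limma, adjusted p = 0.74). Ptpn6, which encodes SHP-1, had 61.3 to 72.9 TPM in AeEMs and 42.8 to 59.2 TPM in AeMMs without overlap, and did not pass (log2 fold change 0.29 ± 0.11, SE, limma, adjusted p = 0.20). The most abundant of the list, the inhibitory receptors Lilrb4a, Lilr4b and Pirb, had log2 fold changes of 0.13, 0.05 and -0.04 (limma, adjusted p = 0.49, 0.73 and 0.93). They belong to a family of near copies, so reads may have been split among its members.

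Of 16 genes listed as regulators, up or down, of Fc gamma receptor transcription, 15 were tested, none rose and 1 fell. The median log2 fold change was 0.00. At an unadjusted p under 0.05 (limma), 5 of the 15 counted, against 18% of all genes, of which 1.25% rose and 1.16% fell. Tgfbr2, the type II receptor for TGF-beta, had 11.9 to 12.8 TPM in AeEMs and 15.7 to 17.5 TPM in AeMMs (log2 fold change -0.42 ± 0.08, SE, limma, adjusted p = 0.026, or 0.31 with 3 sets). Without 1 library it passed only when replicate 3 or 4 of the AeEMs or replicate 3 of the AeMMs was left out (0.035 to 0.12 over the 8). The transcription factors Cebpb and Cebpa and the complement receptor C5ar1 were the most abundant, with log2 fold changes of -0.47, 0.05 and 0.00 (limma, adjusted p = 0.076, 0.89 and 0.99). Cebpb passed without replicate 4 of the AeEMs (0.028).

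**Figure D4:**
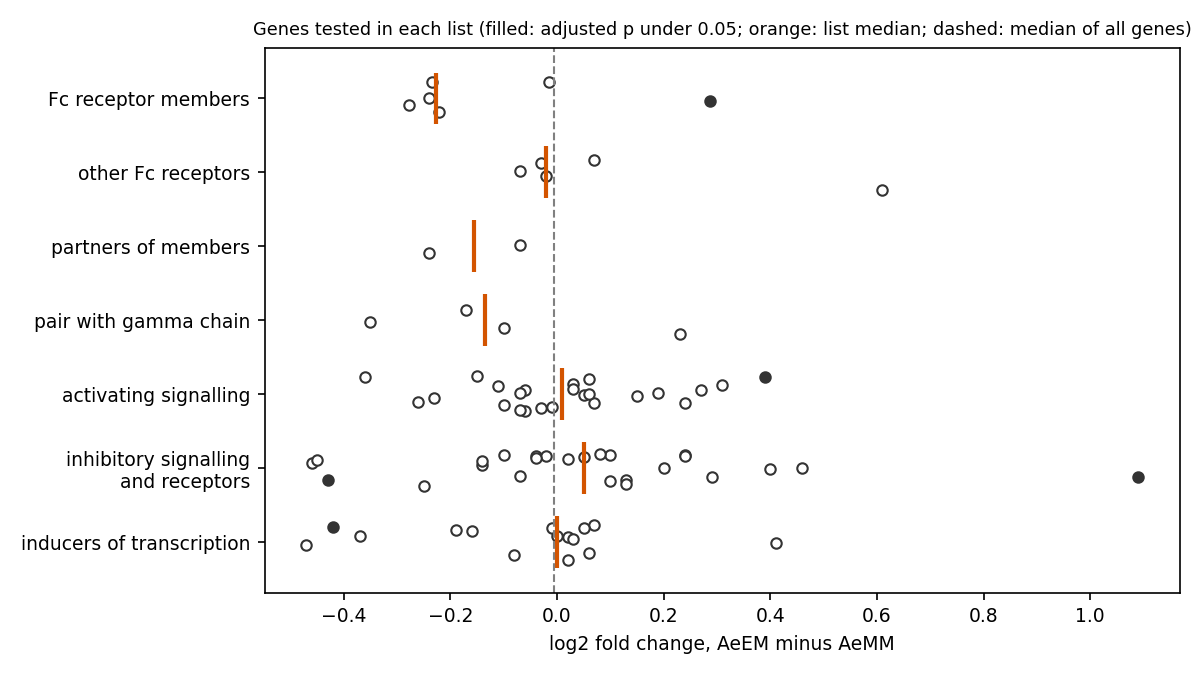
Log2 fold change (AeEM minus AeMM) of every gene tested among the 6 Fc receptors and in the 6 lists, with points spread vertically for legibility, filled where the limma adjusted p was under 0.05; the orange bar is the list's median and the dashed line the median of all genes tested (-0.006). Filled points are Fcgrt, Lat2, Siglecg, Lair1 and Tgfbr2. The list labelled inducers of transcription is that of the regulators, up or down, of Fc gamma receptor transcription.

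Fcgr2b, Fcgr4, Fcgr3 and Fcer1g lie together on chromosome 1 within 275749 bases, with 42373 bases between Fcgr2b and Fcgr4, 21413 between Fcgr4 and Fcgr3, and 164637 between Fcgr3 and Fcer1g. Of the 17 other genes tested within 200 kb of this stretch, 9 had positive and 8 negative log2 fold changes, with a median of 0.07, and none was called. Their groups did not overlap in 2, both with AeEMs above. Over all genes tested, AeEMs were above without overlap in 5.72% and below in 6.53%, and 1.25% were called higher and 1.16% lower. Fcgr3 lies between Fcgr4 and Fcer1g, whose AeEM libraries were below all AeMM libraries, and had itself a log2 fold change of -0.02.

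The promoters of the members were searched for GAGGAA, letters like those in sites of the myeloid factor PU.1. Both strands of the 250 bases before each RefSeq start were read (GRCm38.p6, all 6 members matched by symbol). The promoters of Fcgr1 and Fcgr4 are shown with the match in capitals, TTCCTC being GAGGAA on the other strand, together with that of Fcgrt, the gene that passed the test, which held none:
Fcgr1, chr3:96293970-96294219, minus strand: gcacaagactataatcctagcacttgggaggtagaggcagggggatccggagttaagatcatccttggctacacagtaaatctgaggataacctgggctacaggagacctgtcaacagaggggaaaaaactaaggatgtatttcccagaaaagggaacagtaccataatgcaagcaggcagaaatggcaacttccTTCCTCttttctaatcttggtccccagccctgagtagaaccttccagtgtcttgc
Fcgr4, chr1:171018676-171018925, plus strand: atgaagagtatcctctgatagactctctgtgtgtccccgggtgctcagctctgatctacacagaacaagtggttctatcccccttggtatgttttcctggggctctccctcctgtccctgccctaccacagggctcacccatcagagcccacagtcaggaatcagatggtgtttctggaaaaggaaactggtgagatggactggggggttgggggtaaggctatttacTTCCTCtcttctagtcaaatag
Fcgrt, chr7:45103823-45104072, minus strand: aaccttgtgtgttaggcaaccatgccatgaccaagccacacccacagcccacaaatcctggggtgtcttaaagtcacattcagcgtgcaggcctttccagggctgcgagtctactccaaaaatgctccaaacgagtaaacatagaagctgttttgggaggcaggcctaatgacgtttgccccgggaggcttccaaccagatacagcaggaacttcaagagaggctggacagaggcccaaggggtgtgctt
GAGGAA was found before the starts of Fcgr1, Fcgr3 and Fcgr4, first at -55, -6 and -22 counted from the start (for Fcgr3, the upstream one of 2 starts had it at -6 and the other at -15), and not in these windows of Fcgr2b, Fcer1g and Fcgrt. Of all 32851 promoters, 23.3% held GAGGAA. A match of this kind describes the letters and is not a site of binding. The shorter GGAA was not searched for, and it also occurs in the windows of Fcgr2b, Fcer1g and Fcgrt. Spi1, which encodes PU.1, had 15.3 to 24.7 TPM in AeEMs and 13.3 to 20.5 TPM in AeMMs and did not pass (log2 fold change 0.41 ± 0.18, SE, limma, adjusted p = 0.26). Spi1 is named for this motif, after its values were seen.

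Other genes followed the members closely across the 8 libraries. Among 3109 genes tested that averaged 10 TPM or more, those most like Fcgrt by Pearson's r were Ifi30 (0.996), Cd74 (0.995) and Cfl1 (0.982), and all of these also rose in AeEMs. Cd74, which encodes the invariant chain that escorts MHC class II molecules, rose by 0.90 on the log2 scale (limma, adjusted p = 0.0029), Ifi30, a lysosomal thiol reductase, by 0.30 (0.013), and Cfl1, cofilin, by 0.58 (0.0061). With the 3 sets as a term the adjusted p were 0.038 for Cd74, 0.20 for Ifi30 and 0.066 for Cfl1. Without 1 library, Cd74 and Cfl1 passed each time and Ifi30 in 5 of 8, not without replicate 1 or 2 of the AeEMs or replicate 2 of the AeMMs (up to 0.060). The genes most like Fcgr2b were Tlr7 (0.994), Bach1 (0.985) and Cd38 (0.978), of which Bach1 fell in AeEMs (log2 fold change -0.43, limma, adjusted p = 0.036, or 0.31 with 3 sets). Bach1 passed in 1 of 8 fits that left out a library, the one without replicate 3 of the AeEMs (0.026 to 0.13). For Fcer1g they were Cox6a1 (0.995), Cmtm6 (0.992) and Emilin1 (0.989), and for Fcgr4 Atp5mpl (0.987), Rps29 (0.987) and Ubl5 (0.984). Of these, Emilin1, Rps29 and Ubl5 fell in AeEMs, with log2 fold changes of -0.67, -0.42 and -0.40 (limma, adjusted p = 0.037, 0.021 and 0.040, or 0.25, 0.19 and 0.30 with 3 sets). When 1 library was left out, Emilin1 passed only without replicate 3 of either group (0.016 to 0.12 over the 8). Rps29 was lost without replicate 1 or 2 of either group (up to 0.086), and Ubl5 passed only without replicate 4 of the AeMMs (0.044 to 0.14). Fcgr1 was followed by Riok3 (0.988), Timm10 (0.986) and Lamtor5 (0.981), and Fcgr3 by Acaa2 (0.97), Ramac (0.963) and Tmem179b (0.96). These r describe 8 libraries in 2 groups, and for genes whose groups stand apart they largely restate the group difference. The adjustment between sets also makes equal-numbered libraries of replicates 1 and 2 mirror each other, which leaves fewer independent values than 8.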

How the data were processed

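RNA-seq of 4 AeEM and 4 AeMM libraries was analysed from the deposited table. The authors prepared Smart-seq2 libraries, trimmed the paired reads of 150 bases with fastp and aligned them to the mm10 genome with STAR 2.7.2a, and featureCounts of the Subread package then gave reads per gene. Strand was not kept. The conversion to TPM, the logarithm, the adjustment between sets and the annotation are not given in the sources used here. The deposited values are on a log2 scale, read from the values as log2(TPM + 1). Plain TPM had been assumed in the planned test. The log2 values were taken as deposited and turned back into TPM for printed levels, the filter and scaling alternatives. Of 187752 values, 15847 are below 0, which log2(TPM + 1) without an adjustment cannot give.

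AeEM minus AeMM was fitted in limma 3.58.1 (R 4.3.3), without pairing, on 8801 genes averaging 1 TPM or more, with a trend of variance on level, Benjamini-Hochberg adjustment and a threshold of 0.05. For each member, an exact permutation test (two-sided, 70 splits) was added. Depth is unknown, so no counting interval is given, and precision rests on 4 libraries per group. The fits were tested on simulated data.

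The members and lists were chosen with earlier results of these data known. The text names the members and B2m, Tyrobp, Inpp5d, Ptpn6 and Syk. Of each list it names up to 4 genes called in each direction with the largest change and up to 3 with the highest mean TPM. Markers that passed the test or stayed under 1 TPM are named, as are some others that did neither, by no set rule. For each member the 3 genes most alike are named, leaving out Gm and Rik symbols. Positions and coding sequences came from GENCODE M21 and promoters from RefSeq. Motifs had been planned on proteins; they were searched in translated coding sequences, as no protein table was used here. Alternatives changed the pseudocount (0.1 and 5), filter (none and 5 TPM), scaling, trend, library weights, replicate block, 3 sets as a term and left out each library. A planned second motif and 1 list gene are not reported here.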

Additional observations from a re-analysis of the deposited data

How the results depend on the processing

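In all 18 alternatives Fcgrt was higher in AeEMs, and Fcgr1, Fcgr2b, Fcgr4 and Fcer1g had negative log2 fold changes; Fcgr3 ran between -0.06 and 0.02. With the 3 sets as a term, 9 genes were called higher and 5 lower, with the replicate block (a paired fit, although equal numbers are not known to share a mouse, and the adjustment between sets makes a check of pairing void) 3 higher and 2 lower. In both, 0 of the 6 Fc receptors were called, and Fcgrt, at 0.29, did not pass (limma, adjusted p = 0.31 and 0.32); the counts of genes at an unadjusted p under 0.05 were 848 and 932. Array weights called 540 higher and 836 lower and 5 of the 6, all but Fcgr3; the cause was not tested. Without a trend, 78 were higher and 58 lower, 0 of the 6 were called (4 at an unadjusted p under 0.05), and Fcgrt, at 0.29, did not pass (0.10). A filter of 5 TPM called 2 of the 6 (Fcgr2b and Fcgrt), as did quantile scaling (Fcer1g and Fcgrt). Leaving out 1 library gave 40 to 106 genes higher, 31 to 113 lower, 0 to 3 of the 6, and 0.27 to 0.31 for Fcgrt. Fcgrt passed in 9 of 18 alternatives, Fcgr2b and Fcer1g in 3 each, Fcgr1 and Fcgr4 in 1 each (array weights) and Fcgr3 in none. Counts called in the lists moved as well: array weights gave 4 for activating signalling, 7 for inhibitory signalling, 4 for regulators of transcription, 1 for other Fc receptors and 1 for partners (reported: 1, 2, 1, 0 and 0). The 5 TPM filter, quantile and size factor scaling each gave 1 other Fc receptor, quantile scaling 1 partner, no filter 1 and size factor scaling 3 for inhibitory signalling, no trend 0 for activating signalling, and the 3 sets and the block 0 in every list. Without read counts, precision for the genes of low level cannot be given.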
